A study of Rattus norvegicus with 9 samples.

Results

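The factors that start and extend protein synthesis on cytosolic ribosomes were measured as transcripts in the renal outer medulla of the rat. The set held 56 genes of 30315 loci in the deposited expression table, namely every locus with a single gene name that begins with Eif and a digit or with Eef1 or Eef2, without the eIF2 kinases (names starting Eif2ak). No name was repeated among them. A pair of loci that carry 2 names each, Bloc1s5 with Eef1e1 and Ankhd1 with Eif4ebp3, fall outside that definition. The genes were picked by name and not by their values, although earlier results of these data were known when the set was chosen.

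The study sequenced outer medulla RNA of 9 rats of the MCW SS strain, a salt-sensitive strain, with 1 library per rat and 3 rats in each of 3 groups, and its title concerns DNA methylation and demethylation in salt-induced hypertension. HS_DT rats were given GapmeRs against Dnmt3a and Tet3 into the kidney at 2 mg/kg each and ate a diet with 4% NaCl for 7 days. HS_SCR rats were given a scrambled GapmeR into the kidney at 4 mg/kg and ate the same diet for 7 days. Rats labelled 0.4% salt had the same surgery, stayed on a 0.4% NaCl diet and were collected just before GapmeR and high salt would have begun, so they received no GapmeR and were earlier in time. GapmeRs are antisense oligonucleotides that direct the cleavage of a matching RNA. Dnmt3a adds methyl groups to unmethylated DNA, and Tet3 begins their removal by oxidation. Diet, GapmeR injection and time differ together between HS_SCR and 0.4% salt, so their parts cannot be told apart. The sources used here give neither age nor sex.

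Translation begins when the small ribosomal subunit, bound by eIF1, eIF1A, eIF3, eIF5 and a ternary complex of eIF2, GTP and initiator tRNA, is recruited to the capped end of an mRNA. The cap is held by eIF4F, made of the cap binder eIF4E, the scaffold eIF4G and the helicase eIF4A, and 4E binding proteins (4E-BPs) block that assembly until the kinase mTORC1 phosphorylates them. Once a start codon is chosen, eEF1A delivers aminoacyl-tRNA to the ribosome, the eEF1B subunits recharge eEF1A with GTP, and eEF2 moves the ribosome along the mRNA. Many of the elongation factor mRNAs and ribosomal protein mRNAs belong to the TOP class, which starts with a C followed by an unbroken run of pyrimidines and is translated under the control of mTORC1.

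Sequences around the annotated transcript start could be read for 49 of the 56 genes from the RefSeq promoter table (assembly GRCr8). They are shown for TOP class elongation and eIF3 genes that were higher in HS_SCR and for Eif4g1, the called member that was lower, to let their first bases be compared. Each line runs 5′ to 3′ on the transcript strand from 10 bases before the annotated start through the first 20 transcribed bases. Capitals mark a C followed by at least 4 further C or T letters that begins within 5 bases of the start. The windows lie at 8:88225050-88225079 (minus strand, Eef1a1), 9:72074081-72074110 (plus, Eef1b2), 1:172369052-172369081 (plus, EIF3F), 7:9189219-9189248 (minus, Eef2), 1:215289805-215289834 (plus, Eef1g) and 11:93746348-93746377 (minus, Eif4g1), all on GRCr8.
Eef1a1: ttggacgttCTTTTTCgcaacgggtttgcc
Eef1b2: ggccggtcccggCCCTTTTTCTCCCTCagc
EIF3F: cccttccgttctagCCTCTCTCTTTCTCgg
Eef2: ccgcagccgccgccatcgtcggcgcgcttc
Eef1g: ctgcggaatcaccatggcggctggggtaag
Eif4g1: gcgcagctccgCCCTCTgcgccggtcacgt

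Such a run was found in 10 of the 49 windows (20.4%). It stood in 3 of the 18 genes with a window that were called higher in HS_SCR than in 0.4% salt (16.7%), in 6 of the 29 tested genes with a window that were not (20.7%), and in 15.7% of the 33469 promoters of the table. Of the 9 genes listed as TOP mRNAs from general knowledge, 5 had a window and 3 of those held the run. Eef2 and Eef1g, on the same list, had no such run at the annotated start, and Eif4g1, off the list, had a short one. The annotated start may lie away from the start used in this tissue, and the run was searched for on the transcript strand only.

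Translation factors were abundant transcripts. A mean of at least 1 FPKM (fragments counted per unit of transcript length and per unit of sequencing depth) over the 9 libraries was reached by 53 of the 56 genes, and these 53 were tested. Their median was 58.4 FPKM, against 10.99 FPKM over all 14338 loci past the same minimum. A mean of 100 FPKM or more was found in 16 genes, 10 to 100 FPKM in 34, and 1 to 10 FPKM in 3. Eef1a1, which encodes the tRNA-delivering eEF1A, stood far above the rest, with group means of 2542 FPKM in HS_DT, 3301 FPKM in HS_SCR and 2369.7 FPKM in 0.4% salt. It made up 33.9 to 40.2% of the FPKM summed over all 56 genes in a library.

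Below Eef1a1 the order by mean FPKM began with Eef2, Eef1g and Eif1 in all 3 groups. Eef2 averaged 587 ± 33.9 FPKM in HS_DT, 700.1 ± 60.7 FPKM in HS_SCR and 531 ± 10.986 FPKM in 0.4% salt (SD, n = 3 each). Eef1g and Eif1 were not separated by their spread in HS_DT, at 396 ± 20.8 and 373 ± 63.7 FPKM (SD, n = 3). Eif5a and Eef1b2 exchanged places between groups, and Eif4a1, Eif4a2, Eif4g2 and Eif4h lay close together between 163 and 236 FPKM in HS_SCR. At the low end were Eif2b3, Eif4e3 and Eif5a2. Eef1a2, the eEF1A paralog of muscle and neurons, stayed at or under 0.325 FPKM in every library, EEF1B2L was listed at 0.180 FPKM in 1 library of 0.4% salt and at 0 elsewhere, and Eif4e1b, the germ-cell form of the cap binder, was listed at 0 in all 9.

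**Figure D1:**
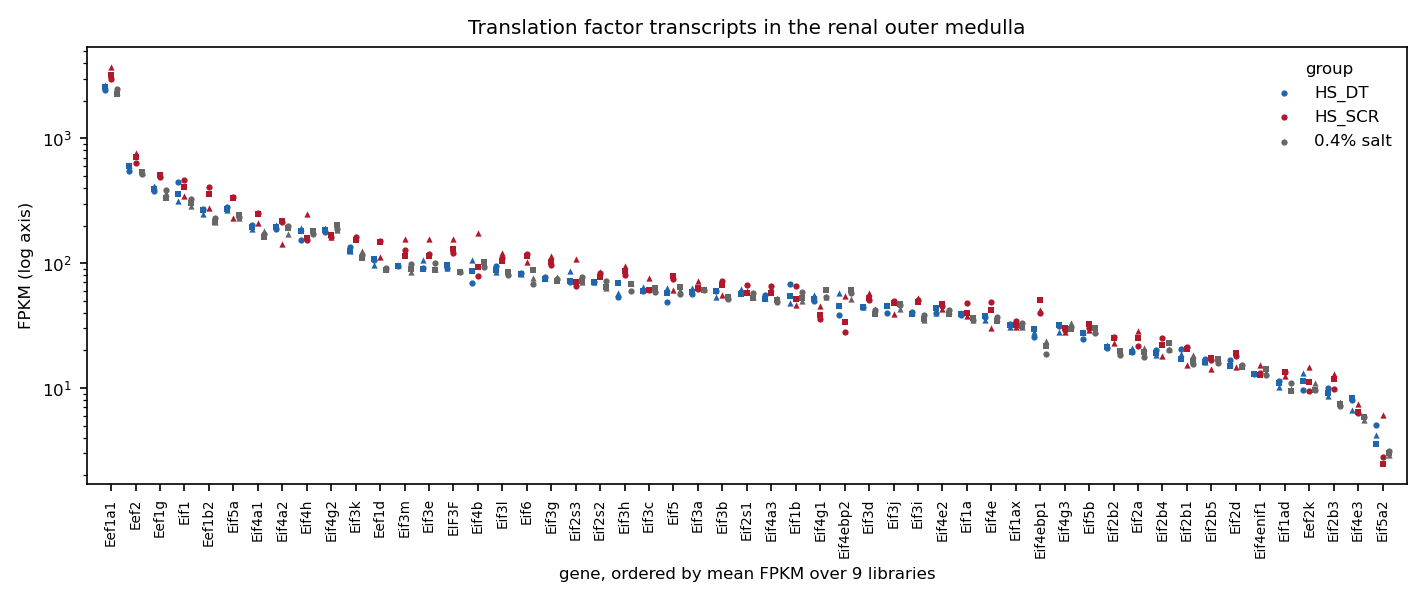
FPKM (log axis) of the 53 tested genes in each of the 9 libraries, ordered by mean FPKM, with 1 point per rat, colours for HS_DT, HS_SCR and 0.4% salt, and circles, squares and triangles for replicates 1, 2 and 3. Eef1a1 runs from 2259 to 3725 FPKM and HS_SCR points are often the highest of a gene.

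The libraries differed in ways that touch these genes. HS_SCR replicate 3 stood apart: mitochondrially encoded transcripts made up 20.6% of its summed FPKM, against 25.4 to 31.9% in the other 8 libraries, and it held the highest value of all 9 libraries in 23 of the 53 genes and the lowest in 11. The median coefficient of variation of the 53 genes was 5.26% in HS_DT, 12.7% in HS_SCR and 4.70% in 0.4% salt. Summed FPKM ran from 685349 to 933862 and relative depth, estimated from the smallest values, from 0.761 to 1.37, while the sources used here give no read counts. Markers of thick ascending limb, the main tubule of the outer medulla, summed to 2639 to 3603 FPKM in HS_DT, 1395 to 3367 FPKM in HS_SCR and 2954 to 4575 FPKM in 0.4% salt. Muscle markers were near 0. Neuron markers were low, at 0.934 to 1.61 FPKM in HS_DT, 0.628 to 1.30 FPKM in HS_SCR and 3.79 to 6.26 FPKM in 0.4% salt.

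In HS_SCR, 21 of the 53 genes were called higher than in 0.4% salt and 1 was called lower, Eif4g1, while 31 did not pass the test (limma, adjusted p under 0.05). The share called higher was 39.6%, against 8.20% of all 14338 loci, and the share called lower was 1.89%, against 4.88% of all loci. The median log2 change was 0.24 for the 53 genes and 0.02 for all loci, and 47 of the 53 changes were above 0. All 3 HS_SCR values lay above all 3 values of 0.4% salt in 29 genes (19.1% of all loci) and below them in 2 genes, Eif4g1 and Eif4g2 (14.5% of all loci). Over the 3 groups together, limma's F test called 11 of the 53 genes, against 5.61% of all loci.

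The count leans on how libraries are scaled and on single libraries. As a share of all nuclear FPKM, the 56 genes took 1.35, 1.34 and 1.63% in the HS_SCR libraries and 1.33, 1.29 and 1.35% in those of 0.4% salt, so that HS_SCR replicates 1 and 2 lay close to 0.4% salt and replicate 3 above it. When every library was given the same summed nuclear FPKM, the median of all loci moved to -0.21 and that of the 53 genes to -0.01. In that form 3 genes were called higher, Eif4ebp1, Eef1d and Eef1b2 (2.73% of all loci), and 5 lower, Eif4g1, Eif4g2, Eif4g3, Eif2b5 and Eif4ebp2 (20.3% of all loci). Quantile normalization left 9 higher (6.35% of all loci) and 2 lower (4.70%). Without HS_SCR replicate 3 the counts were 29 higher (20.5% of all loci) and 3 lower (15.7%), and without HS_SCR replicate 2 there were 11 higher (3.91%). Without 0.4% salt replicates 1, 2 or 3, 6, 4 and 12 genes were called higher, while the share of all loci dropped too, to 2.29%, 1.80% and 4.32%. All 3 rats of 0.4% salt bear numbers of the higher of 2 number series, as does 1 HS_SCR rat, which is replicate 3, the library that stood apart. That rat against the 3 gave 39 of 53 differences above 0, with a median of 0.30, where 50.5% of all loci were above 0.

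**Figure D2:**
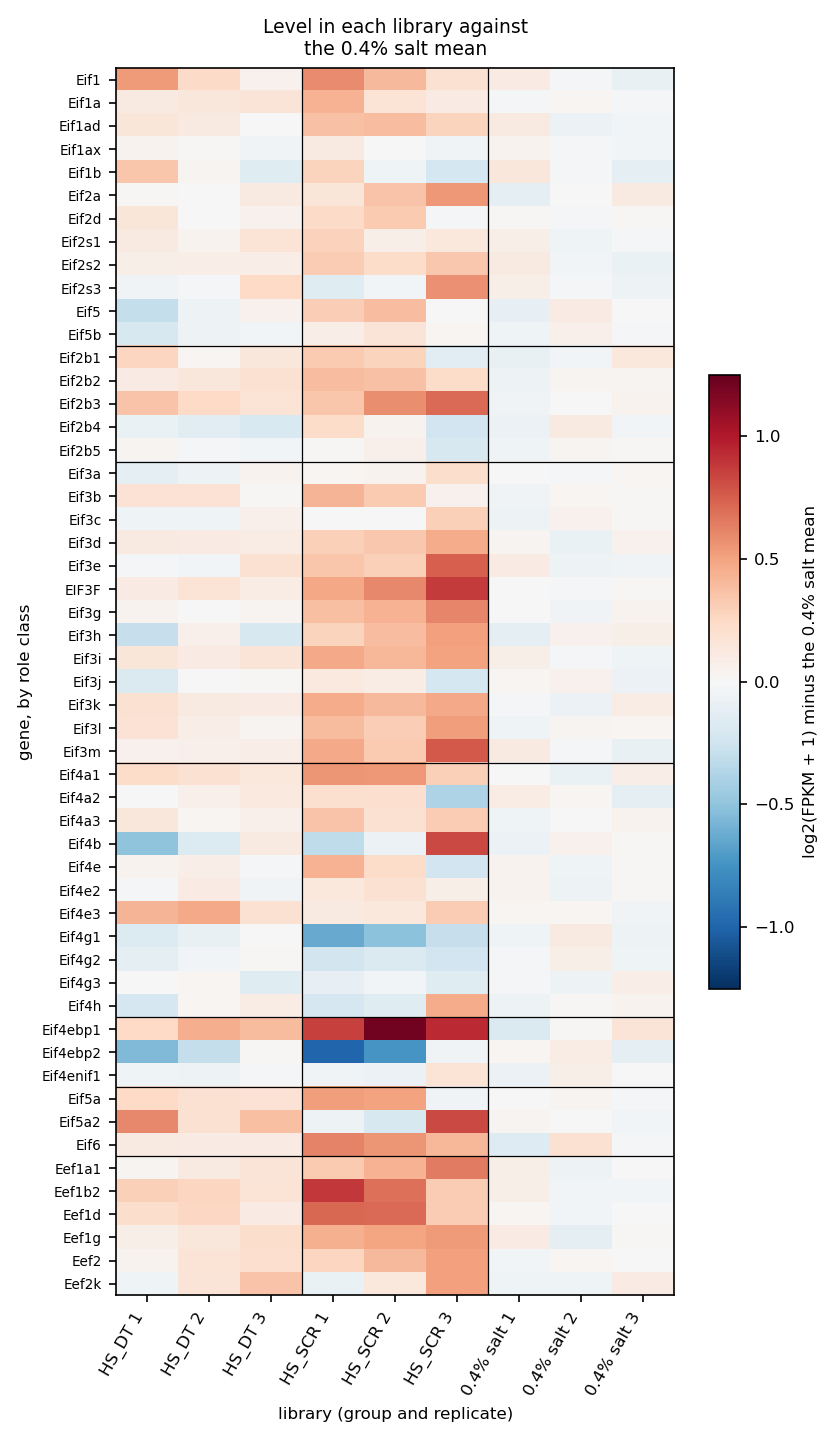
Log2(FPKM + 1) of each tested gene in each library minus its mean in the 3 libraries of 0.4% salt (colour scale), with genes by role class and libraries ordered as HS_DT, HS_SCR and 0.4% salt. Red fills most of the eIF3 and elongation blocks in the HS_SCR columns, Eif4g1 is blue there, and HS_SCR 3 differs from HS_SCR 1 and 2 in genes such as Eif4b and Eif4a2.

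The 4E binding proteins held the largest log2 change among the 53 genes. Eif4ebp1, encoding the best known 4E-BP, had 39.6, 50.7 and 41.8 FPKM in HS_SCR, against 18.8, 21.6 and 24.0 FPKM in 0.4% salt. The groups did not overlap, and the log2 change was 1.00 ± 0.12 (SE; 95% interval 0.72 to 1.28; adjusted p 0.00576). It was called higher in all 23 ways of processing that were tried, the main one included. Its paralog Eif4ebp2 had 27.9, 33.5 and 54.7 FPKM in HS_SCR and 57.4, 60.4 and 51.7 FPKM in 0.4% salt. HS_SCR replicate 3 lay within the range of 0.4% salt and the other HS_SCR libraries lay below it, and the difference did not pass (log2 change -0.59 ± 0.24, adjusted p 0.125). Eif4enif1, which encodes the eIF4E transporter 4E-T, differed by 0.02 on the log2 scale.

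Among the cap-binding and unwinding factors, 2 of 11 tested genes were called higher (18.2%, against 8.20% of all loci) and 1 lower (9.09%, against 4.88%). The median log2 change was 0.13 and turned to -0.13 with equal summed nuclear FPKM. Eif4g1, the main eIF4G scaffold, had 35.7, 38.7 and 45.5 FPKM in HS_SCR, against 53.5, 60.4 and 53.3 FPKM in 0.4% salt. Every HS_SCR value was below every value of 0.4% salt, and the log2 change was -0.47 ± 0.11 (SE; adjusted p 0.0252). The call was lost without any single library of 0.4% salt, without HS_SCR replicates 1 or 2, with the number series as a factor and in a fit of these 2 groups only, where the change ran from -0.33 to -0.50 and adjusted p from 0.0530 to 0.101. Eif4g2, an eIF4G relative that does not bind eIF4E, had 162, 167 and 161 FPKM in HS_SCR and 187, 200.3 and 183 FPKM in 0.4% salt, with an adjusted p of 0.0777. Eif4g3 differed by -0.10 on the log2 scale.

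The helicase genes differed from each other. Eif4a1, the main eIF4A, had 250.4, 248 and 209.6 FPKM in HS_SCR and 171, 161 and 181 FPKM in 0.4% salt, a log2 change of 0.46 ± 0.09 (SE; adjusted p 0.0181). Eif4a3, the helicase of the exon junction complex, was also called higher, at 62.2 ± 3.71 FPKM in HS_SCR and 50.6 ± 1.70 FPKM in 0.4% salt (SD, n = 3 each), a log2 change of 0.29 ± 0.07. Eif4a2 had 215, 217 and 143 FPKM in HS_SCR and 199.9, 190.1 and 172 FPKM in 0.4% salt, and its log2 change of 0.01 turned negative with quantile normalization, equal summed nuclear FPKM, the width trend removed and the number series as a factor. HS_SCR replicate 3 was low for Eif4a2 and high for the 2 RNA-binding partners of eIF4A. Eif4b had 78.5, 93.2 and 174 FPKM in HS_SCR and 93.5, 102 and 99.3 FPKM in 0.4% salt. Eif4h had 154, 160.3 and 246 FPKM in HS_SCR and 170.5, 179.6 and 184 FPKM in 0.4% salt. Neither passed the test, nor did the cap binders Eif4e, Eif4e2 and Eif4e3, whose log2 changes were 0.14, 0.13 and 0.19.

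The eIF3 scaffold, which joins the small subunit to eIF4F, held 8 called genes of 13 (61.5%, against 8.20% of all loci). All were higher: EIF3F, Eif3d, Eif3e, Eif3g, Eif3i, Eif3k, Eif3l and Eif3m. The median log2 change of the 13 was 0.41, and 0.15 with equal summed nuclear FPKM. In that form none of the 13 were called higher or lower (2.73% and 20.3% of all loci). EIF3F, a subunit with an MPN domain, had 120.1, 130.3 and 157 FPKM in HS_SCR, against 85.2, 84.7 and 86.4 FPKM in 0.4% salt (log2 change 0.65 ± 0.10, SE; adjusted p 0.00823). The 0.4% salt libraries were nearly equal and the HS_SCR libraries spread above them. Eif3i, a WD-repeat subunit, had 51.0, 48.9 and 52.2 FPKM in HS_SCR, against 38.5, 36.0 and 35.2 FPKM in 0.4% salt (0.46 ± 0.07, SE; adjusted p 0.00766). It was called in 22 of the 23 ways of processing, all but that with equal summed nuclear FPKM.

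The other called eIF3 subunits changed by 0.37 to 0.52 on the log2 scale. Eif3m, a PCI-domain subunit, had 127, 115 and 156 FPKM in HS_SCR and 98.4, 90.1 and 85.7 FPKM in 0.4% salt (0.52 ± 0.11, SE; adjusted p 0.0232). Eif3g, an RNA-binding subunit, had 97.3, 101 and 114 FPKM in HS_SCR and 74.7, 72.3 and 77.1 FPKM in 0.4% salt (0.47 ± 0.08, SE; adjusted p 0.0105). The groups did not overlap in either gene. Eif3e had 118, 114 and 156 FPKM in HS_SCR and 99.3, 88.3 and 89.2 FPKM in 0.4% salt, and its adjusted p of 0.0491 was the weakest of the called genes, which held in 8 of the 23 ways of processing. Eif3k, the eIF3 gene with the highest mean, had 162, 155 and 162 FPKM in HS_SCR and 116, 111 and 124 FPKM in 0.4% salt (0.45 ± 0.07, SE). Eif3d, whose product can bind the cap, and Eif3l changed by 0.37 and 0.41.

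The large subunits that form the core of eIF3 did not pass the test. Eif3a had 62.3, 63.2 and 71.6 FPKM in HS_SCR and 61.2, 60.6 and 62.4 FPKM in 0.4% salt (log2 change 0.09, adjusted p 0.452). Eif3c differed by 0.10, and Eif3b by 0.27 with an adjusted p of 0.120. Their groups overlapped in Eif3a and Eif3c but not in Eif3b. The loosely bound Eif3j differed by -0.00 on the log2 scale, at 45.6 ± 5.77 FPKM in HS_SCR and 45.4 ± 2.10 FPKM in 0.4% salt (SD, n = 3 each). Eif3h, the other MPN subunit, had 80.0, 86.3 and 94.2 FPKM in HS_SCR and 60.3, 68.5 and 69.4 FPKM in 0.4% salt and missed the threshold at an adjusted p of 0.0555.

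The start codon and ternary complex class had 2 called genes of 12 (16.7%, against 8.20% of all loci), both higher. The median log2 change was 0.21, and -0.05 with equal summed nuclear FPKM. Eif2s2, the beta subunit of eIF2, had 83.2, 77.9 and 84.1 FPKM in HS_SCR and 71.8, 65.0 and 62.8 FPKM in 0.4% salt (0.29 ± 0.07, SE; adjusted p 0.0373). Eif1ad, which encodes a protein with an eIF1A-like domain, had 13.4, 13.5 and 12.5 FPKM in HS_SCR and 10.98, 9.53 and 9.88 FPKM in 0.4% salt (0.35 ± 0.08, SE; adjusted p 0.0338). The partner subunits of Eif2s2 did not pass: the alpha subunit gene Eif2s1, whose product is the target of the eIF2 kinases, differed by 0.16 and the gamma subunit gene Eif2s3 by 0.13. Eif2s3 had 65.5, 71.2 and 109 FPKM in HS_SCR, so that replicate 3 again stood alone, and 77.0, 72.2 and 70.1 FPKM in 0.4% salt. Eif1, the start codon fidelity factor with the highest mean of the class, had 459, 405 and 347 FPKM in HS_SCR and 327, 301 and 287 FPKM in 0.4% salt, with an adjusted p of 0.103 despite ranges that did not overlap. Eif1ax and Eif1b differed by 0.02 and 0.00, and Eif2a, Eif2d, Eif5, Eif5b and Eif1a by 0.09 to 0.35 without passing.

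Of the 5 subunits of eIF2B, the exchange factor that recharges eIF2 with GTP, 2 were called higher (40%, against 8.20% of all loci). Eif2b3, the gamma subunit, had 9.84, 11.7 and 12.9 FPKM in HS_SCR and 7.22, 7.51 and 7.78 FPKM in 0.4% salt (log2 change 0.55 ± 0.11, SE; adjusted p 0.0165). Eif2b2, the beta subunit, had 25.5, 25.2 and 22.7 FPKM in HS_SCR and 18.5, 19.7 and 19.7 FPKM in 0.4% salt (0.33 ± 0.08, SE; adjusted p 0.0285). Eif2b1, Eif2b4 and the catalytic subunit gene Eif2b5 differed by 0.16, 0.01 and -0.04. The median of the 5 was 0.16, and -0.09 with equal summed nuclear FPKM.

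Eif6, whose product keeps large ribosomal subunits from joining too early, was called higher, at 118, 113 and 103 FPKM in HS_SCR and 68.7, 87.9 and 75.4 FPKM in 0.4% salt (log2 change 0.53 ± 0.10, SE; adjusted p 0.0155). Eif5a, the hypusine-bearing factor that relieves stalled ribosomes, had 338, 334 and 228 FPKM in HS_SCR and 234, 241 and 231 FPKM in 0.4% salt, and did not pass (0.33 ± 0.14, SE; adjusted p 0.157). HS_SCR replicate 3 lay below all of the 0.4% salt libraries while the other HS_SCR libraries lay above them. Its paralog Eif5a2 had 2.83, 2.47 and 6.08 FPKM in HS_SCR and 3.11, 2.99 and 2.90 FPKM in 0.4% salt.

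**Figure D3:**
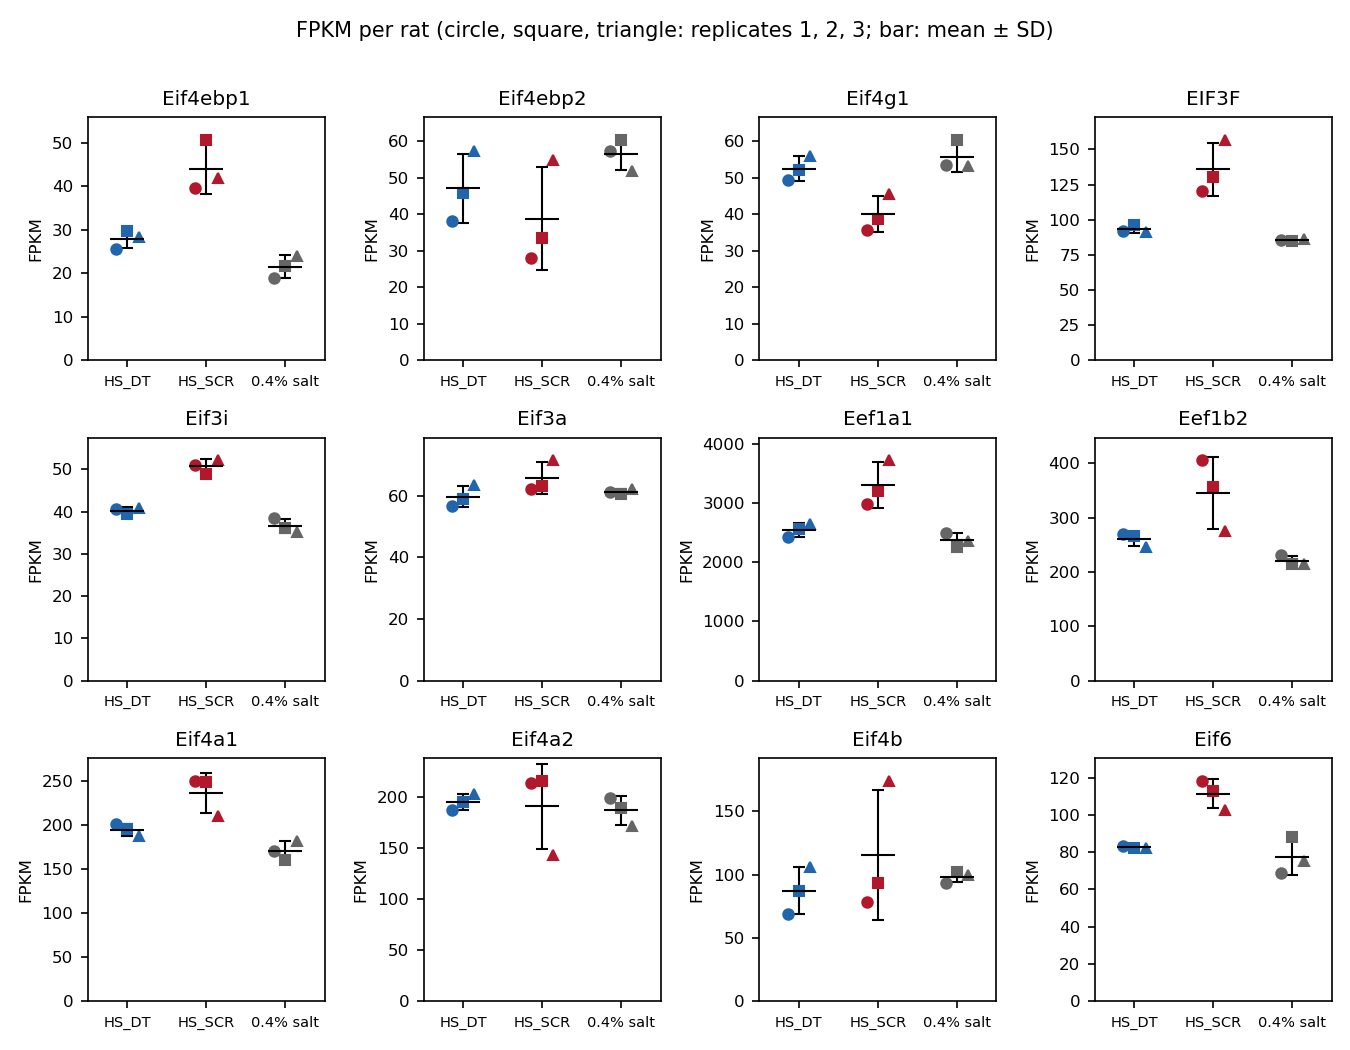
FPKM per rat of 12 genes, with HS_DT left, HS_SCR in the middle and 0.4% salt right, and a bar for the mean ± SD of 3 rats. Eif4ebp1, EIF3F and Eif3i in HS_SCR lie above all other libraries, Eif4g1 in HS_SCR lies below them, and HS_SCR replicate 3 (triangle) departs from its group in Eif4ebp2, Eif4a2 and Eif4b.

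The elongation factors had the largest share of called genes, 5 of 6 tested (83.3%, against 8.20% of all loci), all higher. The median log2 change was 0.48, and 0.22 with equal summed nuclear FPKM, where Eef1b2 and Eef1d were still called higher (2.73% of all loci). Eef1a1 had 2977, 3202 and 3725 FPKM in HS_SCR, against 2496, 2259 and 2354 FPKM in 0.4% salt (0.47 ± 0.12, SE; adjusted p 0.0338), a call that held in 11 of the 23 ways of processing. The exchange factor subunits moved by similar or larger amounts. Eef1b2 had 406, 356 and 275 FPKM in HS_SCR and 232, 214 and 214 FPKM in 0.4% salt (0.63 ± 0.13, SE; adjusted p 0.0219). Eef1d had 149.7, 149 and 113 FPKM in HS_SCR and 92.1, 88.3 and 90.7 FPKM in 0.4% salt (0.58 ± 0.11, SE; adjusted p 0.0170). HS_SCR replicate 3 was the lowest of its group in both genes, whereas it was the highest in Eef1a1, Eef1g and Eef2.

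Eef1g, the gamma subunit, had 488, 504 and 518 FPKM in HS_SCR and 384, 331 and 361 FPKM in 0.4% salt (0.49 ± 0.09, SE; adjusted p 0.0122). Eef2, the translocase, had 638, 702 and 759.6 FPKM in HS_SCR and 519, 541 and 533 FPKM in 0.4% salt (0.39 ± 0.09, SE; adjusted p 0.0289). The groups did not overlap in 5 of the 6 tested elongation genes (19.1% of all loci), the same 5 that were called. Calls and ranges rest on the same values, here and in the other called genes, so separate ranges add no support. Eef2k, the kinase that inactivates eEF2, had 9.45, 11.1 and 14.8 FPKM in HS_SCR and 9.67, 9.70 and 10.9 FPKM in 0.4% salt and did not pass (0.19 ± 0.16, SE; adjusted p 0.460). Across the TOP mRNA list, 7 of 9 genes were called higher (77.8%, against 8.20% of all loci), with a median log2 change of 0.47. The exceptions were Eif3h and Eif4b. With equal summed nuclear FPKM 2 of the 9 were called higher (2.73% of all loci), with a median of 0.21, against -0.21 for all loci. With quantile normalization 2 were called higher (6.35% of all loci), with a median of 0.26, against 0.03 for all loci. RefSeq (GRCr8) lists 22 further loci named as copies of Eef1a1, 16 of Eef1g and 9 of Eif4a1, nearly all pseudogenes, and how reads shared with such copies were assigned is not stated, which leaves the FPKM of these genes uncertain to that extent.

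Neighbouring parts of the translation machinery showed a range of shares. Of 74 tested cytosolic ribosomal protein genes, 71 were called higher in HS_SCR (95.9%, against 8.20% of all loci). The median log2 change against 0.4% salt was 0.65. With quantile normalization 3 of the 74 were called higher, where 6.35% of all loci were. With equal summed nuclear FPKM 57 of the 74 were called higher, where 2.73% of all loci were. Among them Rps28 changed by 0.85, Rps27 and Rps12 by 0.81 and Rpl36 by 0.80. Against the 8.20% of all loci called higher, 2 of 15 poly(A) binding, release and modification genes were (13.3%), Tpt1 (0.66), which encodes the translationally controlled tumour protein, and Pabpc1 (0.52), the cytosolic poly(A) binding protein. Of 22 aminoacyl-tRNA synthetase genes and their scaffolds, 2 were called higher (9.09%), Aimp1 (0.33) and Kars (0.32). Of 10 mitochondrial translation factors 1 was called lower (10%, against 4.88% of all loci), Gfm2 (-0.63).

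Some regulators upstream of these factors were called as well. In the list of mTORC1 and related kinases, 4 of 17 genes were called higher (23.5%, against 8.20% of all loci) and 1 lower (5.88%, against 4.88%). Ddit4, a stress-induced inhibitor of mTORC1, averaged 49.1 ± 15.2 FPKM in HS_SCR and 25.9 ± 1.06 FPKM in 0.4% salt (SD, n = 3 each), a log2 change of 0.85 (limma, adjusted p 0.0262). Pdcd4, an inhibitor of eIF4A, averaged 131 ± 14.4 FPKM in HS_SCR and 99.1 ± 1.64 FPKM in 0.4% salt (0.39, adjusted p 0.0298). RPS6, a ribosomal protein and target of the S6 kinases, changed by 0.59 (adjusted p 0.0295), and Deptor, an mTOR inhibitor, by -0.49 (adjusted p 0.0456). Of 8 genes of the eIF2 kinase and phosphatase list, 2 (25%) were called higher. They were Atf4 (0.54, adjusted p 0.0385), a transcription factor translated when eIF2 is phosphorylated, and Ppp1r15a (0.70, adjusted p 0.0482), the inducible subunit of the eIF2 phosphatase. Calls of these regulators with the libraries scaled otherwise are not given here. The eIF2 kinase genes themselves did not pass, and no gene of these companion lists was called in the comparisons with HS_DT.

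Markers of other cells moved with the same contrast. Proximal tubule markers summed to 159 to 812 FPKM in HS_SCR and 1351 to 3530.1 FPKM in 0.4% salt. Of 16 tested, 6 were called lower (37.5%, against 4.88% of all loci). Of 12 thick ascending limb markers 4 were called lower (33.3%) and 1 higher (8.33%, against 8.20% of all loci), with a median log2 change of -0.67. All 9 tested markers of collecting duct principal cells had a change above 0, with a median of 0.31, and 0 were called. Myeloid markers summed to 4088 to 6791 FPKM in HS_SCR and 3009.5 to 3339 FPKM in 0.4% salt, with 8 of 14 called higher (57.1%). Erythroid markers summed to 1945 to 10744 FPKM in HS_SCR and 769 to 1132 FPKM in 0.4% salt, with 5 of 6 called higher (83.3%). Neutrophil markers summed to 77.1 to 444 FPKM in HS_SCR and 6.73 to 8.80 FPKM in 0.4% salt, with 2 of 3 called higher (66.7%). Of the neuron markers only 1 was tested, and it was called lower (log2 change -1.80, against 4.88% of all loci called lower). No marker of these lists was at 0 in all 9 libraries. In bulk tissue fewer cells of a type and less RNA per cell cannot be told apart, and the part of these shifts in the translation factor values was not tested.

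Between HS_DT and HS_SCR, no translation factor passed the test: 0 of 53 were called by limma, as were 0.00697% of all loci, that is 1 locus. Most values nevertheless lay lower in HS_DT, with 44 of 53 log2 changes below 0 and a median of -0.15, where the median of all loci was -0.00. An unadjusted p under 0.05 was found for 27 genes (19.1% of all loci), of which 25 were lower in HS_DT and 2 higher. All HS_DT values lay below all HS_SCR values in 23 genes (12.5% of all loci) and above them in 2, Eif4g1 and Eif4g2 (9.10% of all loci). This contrast uses the same HS_SCR libraries as the one before it, so the opposite directions are not independent observations. Markers of other cells differed in this contrast too, although none was called. Proximal tubule markers had a median log2 change of 1.75, with 15 of 16 above 0, and summed to 562 to 2381 FPKM in HS_DT and 159 to 812 FPKM in HS_SCR. The medians were 0.36 for thick ascending limb, -0.30 for collecting duct principal cell, -0.29 for myeloid, -0.86 for erythroid and -1.83 for neutrophil markers. The part of these shifts in the translation factor values was not tested.

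The smallest p-values belonged to Eif3g, EIF3F and Eif4ebp1, all at an adjusted p of 0.0644. Eif3g had 77.1, 74.2 and 76.3 FPKM in HS_DT, against 97.3, 101 and 114 FPKM in HS_SCR, a log2 change of -0.45 ± 0.08 (SE). EIF3F had 91.9, 96.5 and 91.2 FPKM in HS_DT, against 120.1, 130.3 and 157 FPKM in HS_SCR (-0.53 ± 0.10, SE). Eif4ebp1 had 25.6, 29.6 and 28.3 FPKM in HS_DT, against 39.6, 50.7 and 41.8 FPKM in HS_SCR (-0.64 ± 0.12, SE). The groups did not overlap in any of these genes, which were picked by p-value from the same libraries, and none passed the threshold.

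By class, the HS_DT values were lowest relative to HS_SCR in the same blocks that were high in HS_SCR. All 13 eIF3 genes had a log2 change below 0, with a median of -0.31, and all 6 elongation genes, with a median of -0.36; these medians were -0.12 and -0.17 with equal summed nuclear FPKM. Eef1a1 had 2422, 2559 and 2644 FPKM in HS_DT, below every HS_SCR library, with a log2 change of -0.37 ± 0.12 (SE; adjusted p 0.151). Eef1b2 had 270.2, 266 and 247 FPKM in HS_DT, and Eef1d 106, 108 and 96.9 FPKM. Eif6 had 83.5, 82.4 and 82.5 FPKM in HS_DT, a narrower spread than in either other group, and a log2 change of -0.42 ± 0.10 (SE; adjusted p 0.0887). Cap complex genes split, with 6 changes below 0 and 5 above. Eif4g1 had 49.3, 52.0 and 56.0 FPKM in HS_DT, above every HS_SCR library (0.39 ± 0.11, SE; adjusted p 0.116).

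HS_SCR replicate 3 weighed on this contrast too. Without it, 17 genes were called lower in HS_DT (9.29% of all loci) and 2 higher, Eif4g1 and Eif5a2 (6.75% of all loci); without HS_SCR replicate 1, 2 genes were called lower, EIF3F and Eif3g (0.767% of all loci). With equal summed nuclear FPKM 25 of the 53 changes lay below 0, and the median was 0.03 where that of all loci was 0.17. That rescaling applies 1 factor per library, so it moves the genes and all loci nearly alike and leaves the gap between their medians almost as it was. In the lower number series, 2 HS_DT rats against 2 HS_SCR rats gave 43 of 53 differences below 0 (51.8% of all loci), and in the higher series 1 rat against 1, the HS_SCR rat being replicate 3, gave 36 of 53 (49.8% of all loci).

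**Figure D4:**
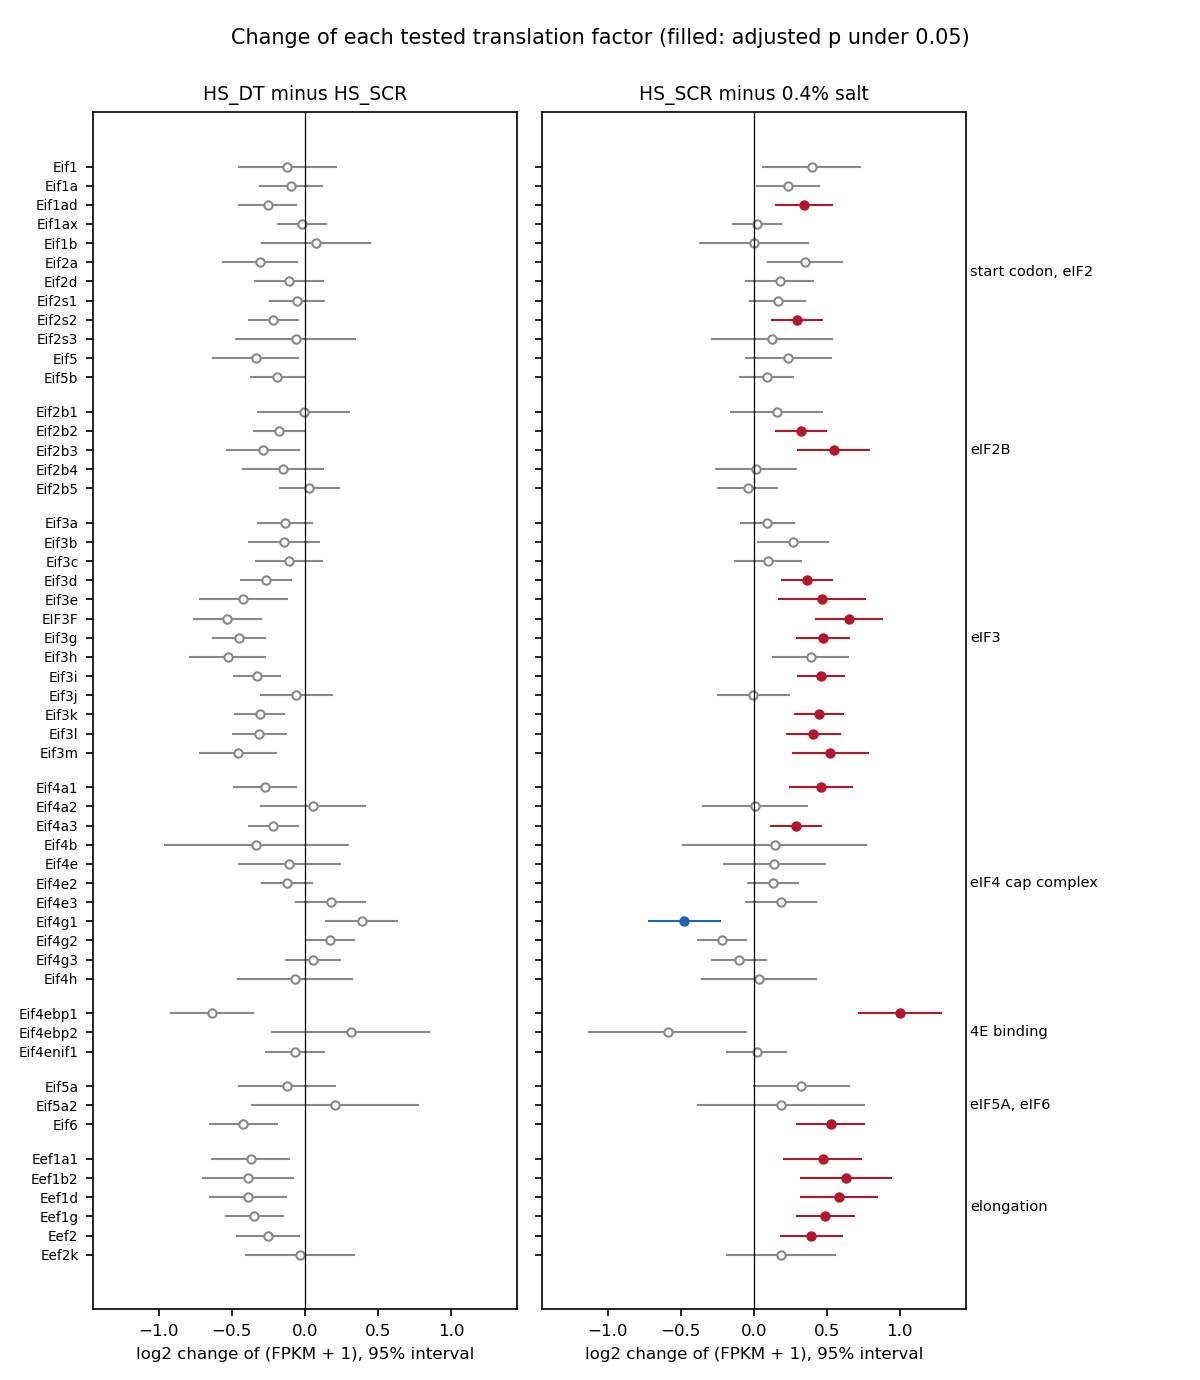
Log2 change of (FPKM + 1) with its 95% interval for each tested gene, HS_DT minus HS_SCR on the left and HS_SCR minus 0.4% salt on the right, with filled points for an adjusted p under 0.05 (red higher, blue lower). Filled points appear on the right only, 21 red and 1 blue, and on the left 44 of 53 points lie below 0.

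HS_DT and 0.4% salt were not separated by the test in any of these genes. Limma called 0 of 53 genes, and 0% of all loci. An unadjusted p under 0.05 was found for 3 genes (7.49% of all loci), all higher in HS_DT. All HS_DT values lay above those of 0.4% salt in 16 genes (14.2% of all loci) and below them in 1, Eif2b4 (9.64% of all loci). The median log2 change was 0.08 for the 53 genes and 0.01 for all loci. Beside them, 14 of 14 myeloid markers had a change above 0, with a median of 0.63 and an unadjusted p under 0.05 in 11. The medians were 1.498 for erythroid, 2.17 for neutrophil, -1.10 for proximal tubule, -0.23 for thick ascending limb and 0.13 for collecting duct principal cell markers. No marker was called, and the part of these shifts in the translation factor values was not tested. The 3 genes with the smallest p were Eif4e3, Eif4ebp1 and Eif2b3.

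Eif4e3, a divergent cap binder, had 8.05, 8.38 and 6.72 FPKM in HS_DT and 5.84, 5.87 and 5.52 FPKM in 0.4% salt (log2 change 0.36 ± 0.10, SE; adjusted p 0.448). Eif4ebp1 had 25.6, 29.6 and 28.3 FPKM in HS_DT and 18.8, 21.6 and 24.0 FPKM in 0.4% salt (0.37 ± 0.12, SE; adjusted p 0.515), so that HS_DT lay between the other groups with no overlap on either side. Eif2b3 had 9.92, 9.09 and 8.58 FPKM in HS_DT and 7.22, 7.51 and 7.78 FPKM in 0.4% salt (0.26 ± 0.11, SE; adjusted p 0.629). For the most abundant gene, Eef1a1, the 95% interval of the log2 change ran from -0.16 to 0.37, and for EIF3F from -0.10 to 0.35. A change of that size in either direction is therefore not shown to be absent.

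Ratios between paralogs are free of any scaling that applies 1 factor per library, but not of quantile or width-trend scaling. The ratios given here are of the FPKM as deposited, and the loci of Eif4ebp1 and Eif4ebp2 span 13373 and 248533 bases. The 9 ratio tests (3 pairs, 3 comparisons) were exact, two-sided permutation tests with 3 libraries a side, and such a test cannot give a p under 0.1, so none could pass the threshold. The log2 ratio of Eif4ebp1 to Eif4ebp2 averaged -0.74 ± 0.24 in HS_DT, 0.24 ± 0.54 in HS_SCR and -1.40 ± 0.26 in 0.4% salt (SD, n = 3 each). HS_SCR exceeded 0.4% salt by 1.64, HS_DT was below HS_SCR by a difference of -0.98 and above 0.4% salt by 0.66, each with an exact p of 0.1 (adjusted 0.18 over the 9 tests). In linear terms Eif4ebp1 had 1.42, 1.51 and 0.764 times the FPKM of Eif4ebp2 in the HS_SCR libraries, and 0.327, 0.358 and 0.464 times in those of 0.4% salt.

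The other pairs moved less. The log2 ratio of Eif4a1 to Eif4a2 averaged -0.01 ± 0.11 in HS_DT, 0.32 ± 0.20 in HS_SCR and -0.13 ± 0.18 in 0.4% salt (SD, n = 3 each), with exact p of 0.1 for HS_SCR minus 0.4% salt (0.45) and for HS_DT minus HS_SCR (-0.33). The ranges did not overlap in those comparisons. The log2 ratio of Eif5a to Eif5a2 averaged 6.002 ± 0.23 in HS_DT, 6.40 ± 1.02 in HS_SCR and 6.29 ± 0.05 in 0.4% salt (SD, n = 3 each), and HS_SCR replicate 3, at 5.23, lay below all other libraries. The pair of Eef1a1 and Eef1a2 was not tested, since Eef1a2 was under 1 FPKM throughout.

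**Figure D5:**
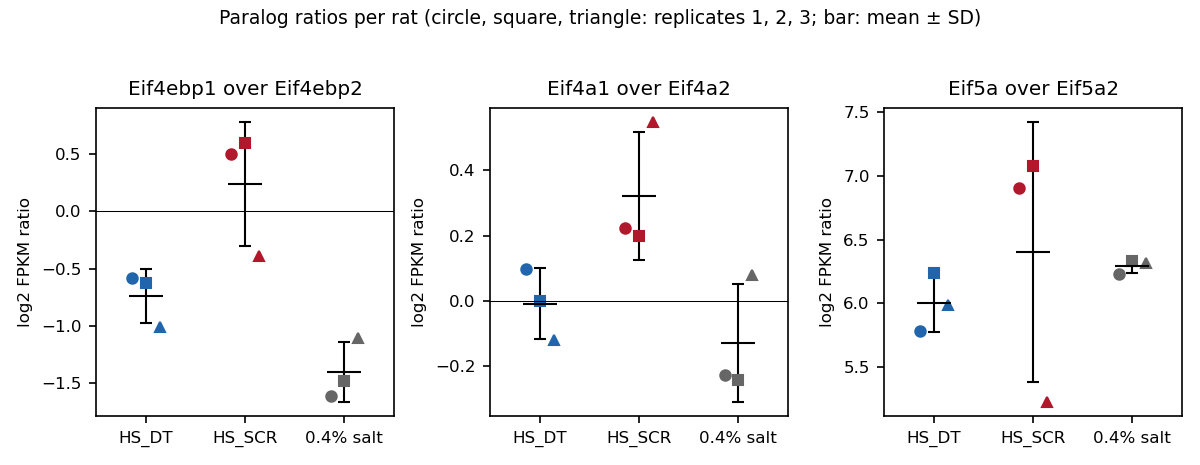
Log2 FPKM ratio of 3 paralog pairs in each rat, with HS_DT left, HS_SCR in the middle and 0.4% salt right, and a bar for the mean ± SD of 3 rats; the vertical scales differ between panels. The ratio of Eif4ebp1 to Eif4ebp2 is above 0 in 2 HS_SCR libraries and below 0 in all others.

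The called genes lie on many chromosomes of build rn5, with Eif4ebp1 at 16:68580279-68593651, EIF3F at 1:180523028-180532243, Eif3i at 5:151525743-151546875, Eef1a1 at 8:85388156-85391180 and Eif4g1 at 11:86979552-86999612 (locus spans of the deposited table). The genes called higher had a median locus width of 12287 bases and the other tested genes 21122 bases. Across the 53 genes, locus width and the log2 change of HS_SCR minus 0.4% salt had a Spearman correlation of -0.33, and across all 14338 loci of -0.26, values that share the same libraries and serve as description only. With the trend on width removed, 13 genes were called higher (6.39% of all loci) and 2 lower, Eif4g1 and Eif4g2 (4.82% of all loci). For 53 of the 56 genes the chromosome in the table was the one RefSeq gives on GRCr8, and for Eif3e and Eif3h it differed, so their loci in the table may not be the annotated genes.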

How the data were processed

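The authors deposited 1 FPKM value per library for each of 30315 loci. Per the submitters' processing notes, the tools included Cufflinks 2.2.1 and Trim Galore 0.2.5 and the genome build was rn5, while the sources used here name neither aligner nor annotation. Rat numbers in the titles tied the libraries to their columns, and 1 further column, which repeats HS_DT replicate 3 at all loci, was not used. Depth is unknown, so no counting interval is given.

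Values were analysed as log2(FPKM + 1), so changes of low genes are understated, and loci averaging at least 1 FPKM (14338) were tested. The test was limma 3.58.1 (R 4.3.3) with a mean-variance trend, a single fit of 3 groups (6 residual degrees of freedom), two-sided, Benjamini-Hochberg over all tested loci, threshold 0.05; the fit was tested on simulated data. Replicates are separate rats. No label ties equal replicate numbers to each other, so no block was used in the main fit. Residuals of same-numbered libraries did correlate over 0.1 in 5 of 9 pairs, while pairs with unlike numbers ran from -0.31 to 0.24. A link between same-numbered rats is therefore not excluded, and a fit with the block was run as an alternative. Named genes are up to 12 called members per direction, or the 3 with the smallest p, the most abundant of each role class, paralog pairs, and up to 4 called genes of each companion list; others were named after their values were seen. The members and lists were chosen with earlier results of these data known, and the pyrimidine run was defined after seeing the data. Alternatives were pseudocounts of 0.1 and 0.5, no filter or a minimum mean of 5 FPKM, median-ratio, quantile and width-trend scaling, robust moderation, library weights, a fit of only the groups compared, the replicate block, the number series as a factor, each library left out and, added after seeing the data, equal summed nuclear FPKM. Sequences and copy names come from RefSeq tables of GRCr8.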

Additional observations from a re-analysis of the deposited data

How the results depend on the processing

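For HS_SCR minus 0.4% salt, against 21 genes called higher and 1 lower, the counts were 9 and 2 with quantile normalization (6.35% and 4.70% of all loci), 13 and 2 with the trend on locus width removed (6.39% and 4.82%), 3 and 5 with equal summed nuclear FPKM (2.73% and 20.3%), 3 and 0 with only the groups compared in the fit (2.27% and 0.976%), 26 and 2 with library weights (15.999% and 12.03%) and 15 and 0 with the number series as a factor (5.88% and 3.32%). These shares stand beside 8.20% and 4.88% of all loci in the reported form. Leaving out each library in turn gave 4 to 29 called higher (1.80 to 20.5% of all loci) and 0 to 3 called lower (0.621 to 15.7%). With the replicate block, 23 were higher and 1 lower (7.92% and 5.37%), and 0 were called in the comparisons with HS_DT, so the block changed none of these counts by over 1.5 times; residuals of same-numbered libraries correlated from -0.08 to 0.26, with 5 of 9 over 0.1, and the numbers are not taken to pair the rats. For HS_DT minus HS_SCR, against 0 called, 12 were lower and 1 higher with library weights (6.10% and 4.34% of all loci), 7 lower and 1 higher with the number series as a factor (2.06% and 0.879%) and 3 lower with a minimum mean of 5 FPKM (1.18%), and leaving out each library in turn gave 0 to 17 lower (0 to 9.29%) and 0 to 2 higher (0 to 6.75%). For HS_DT minus 0.4% salt, against 0 called, 8 were higher with library weights (8.22% of all loci, against 0%). The estimate of those weights stopped before its tolerance was met. The cause of these shifts was not tested. Fits of only the groups compared, or with a library left out, hold fewer libraries.

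Only named genes are followed here. For HS_SCR minus 0.4% salt, 47 of all 53 changes were above 0 and 6 below in the reported form. With equal summed nuclear FPKM, 26 were above 0 and 27 below. Changes of named genes that turned sign were small and did not pass the test in either form. In HS_SCR minus 0.4% salt, Eif4a2 was at -0.165 with quantile normalization, -0.128 with the width trend removed, -0.158 with the number series as a factor and -0.253 with equal summed nuclear FPKM, and ran from -0.0918 to 0.205 when each library was left out. Eif5a2 was at -0.0807 with library weights, -0.00832 with equal summed nuclear FPKM and from -0.133 (without HS_SCR replicate 3) to 0.380 when each library was left out, and Eif4e3 at -0.0374 with equal summed nuclear FPKM. In HS_DT minus HS_SCR, Eif1 and Eif5a were at 0.0259 and 0.000803 with quantile normalization and at 0.0744 and 0.0735 with equal summed nuclear FPKM, where Eif2b2 was at 0.00713, and Eif4a2 was at -0.0948 with library weights and ran from -0.140 (without HS_SCR replicate 3) to 0.157 over the left-out libraries. In HS_DT minus 0.4% salt, Eif3g was at -0.0177 with quantile normalization, -0.0484 with the width trend removed, -0.0463 with equal summed nuclear FPKM and from -0.000594 (without 0.4% salt replicate 2) to 0.0452 over the left-out libraries. Eif3e was at -0.00895 with quantile normalization, -0.0299 with library weights, -0.0220 with equal summed nuclear FPKM and from -0.0265 (without HS_DT replicate 3) to 0.09998 over the left-out libraries. Eef1a1 was at -0.0594 with quantile normalization, Eif3m at -0.000873 and Eif4a2 at -0.00350 with equal summed nuclear FPKM, and with the number series as a factor Eif4g1 was at 0.0563, Eif4ebp2 at 0.145 and Eif4a2 at -0.102. The log2 ratio of Eif5a to Eif5a2 in HS_SCR minus 0.4% salt ran from -0.229 (without HS_SCR replicate 2) to 0.696 (without HS_SCR replicate 3).

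Of 483 alternative values of named genes in HS_SCR minus 0.4% salt, 373 kept direction and side of the threshold, 91 lost it, 8 gained it and 11 turned sign. In HS_DT minus HS_SCR these were 436 kept, 40 gained and 7 turned, and in HS_DT minus 0.4% salt 461 kept, 8 gained and 14 turned. With 3 libraries per group and unknown depth, small changes are uncertain, and not only in genes under 10 FPKM. For HS_SCR minus 0.4% salt the SE of the log2 change was 0.27 in Eif4b, at a mean of 100.3 FPKM, and 0.25 in Eif5a2, at 3.69 FPKM. It was 0.11 in Eif2b3 and 0.10 in Eif4e3, both under 10 FPKM.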
